A study of Mus musculus with 12 samples.

Results

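Skeletal muscle of diabetic mice given both high-intensity interval training (HIIT) and semaglutide was compared with muscle of sedentary mice of the same strain. The comparison holds 6 of the 12 muscle libraries of the study, 3 of each group, chosen by their labels. All mice were male db/db on the C57BL/KsJ background, which lack a working leptin receptor, and they entered the study at 8 weeks of age. The control mice were reared normally and no injection is named for them, so the drug and the act of injecting cannot be told apart. The combination mice ran intervals on a treadmill, 10 bouts of 4 min at 85 to 90% of their maximal speed with 2 min of slower running between bouts, on 5 days a week for 8 weeks. Over the same weeks they were injected under the skin with semaglutide. Its dose is stated in the labels as 30 nmol/kg a day and also as 0.05 mg/kg, which is not the same dose. HIIT alone and semaglutide alone, with 3 libraries each, served for the comparisons within treated muscle. Each library is a separate sample in the labels, which do not describe its animal, so a p-value here speaks only of the spread among samples, which may be technical.

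Semaglutide is an analogue of the gut hormone GLP-1 that lowers blood glucose and food intake. In muscle, insulin acts through PI3-kinase and Akt to move the glucose transporter GLUT4 to the cell surface and to keep the FoxO transcription factors out of the nucleus. When insulin or food is scarce, or glucocorticoids are high, FoxO factors and the glucocorticoid receptor switch on genes of protein breakdown, autophagy and growth arrest. Training is known to act on mitochondria, blood vessels, fibre type and the glucose transport machinery of muscle.

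RNA was measured by sequencing of polyadenylated transcripts, and the values are FPKM, fragments scaled to the length of the transcript and the size of the library. Of 22390 features, 10666 reached an FPKM of 1 in at least 3 of the 12 libraries and were tested. Differences are on the scale of log2(FPKM + 1) with their standard error (SE), and a gene was called higher or lower at an adjusted p of 0.05 in limma (Benjamini-Hochberg, two-sided, all 12 libraries sharing 1 estimate of the spread). The files give no read counts or depth, so no counting interval could be set. The protocol names the soleus, a slow muscle in rodents, whereas the label says muscle. Myh4, the myosin of the fastest fibres, made up 82.3 to 95.1% of the summed FPKM of the 4 adult myosins in the 12 libraries, and the slow myosin Myh7 0.056 to 1.52%.

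Several libraries stood apart. The 26 hepatocyte markers summed to 1195, 2483 and 375 FPKM in control replicates 1, 2 and 3 and to 224, 96.2 and 63.1 FPKM in the combination replicates, and 24 of them lay lower in all 3 combination libraries. Genes whose control levels followed albumin were therefore kept apart, as described with the liver genes below. Combination replicate 1 carried 1026 FPKM of the 15 white adipocyte markers and 116 FPKM of the 12 macrophage markers, against 379 and 435 FPKM, and 31.2 and 29.3 FPKM, in replicates 2 and 3. Replicates 2 and 3 had fewer genes at an FPKM of 1 or more, 9246 and 9181, than replicate 1 with 9902 and the controls with 10002 to 10690. The 12 markers of muscle fibres summed to 72800 to 73890 FPKM in the combination group and 66890 to 83580 FPKM in the controls. The 7 kidney markers were below an FPKM of 1 in all 6 libraries, 4 of them at 0. Fits with a hepatocyte score or a white adipocyte score as a covariate are described below. The part of the other differences in the results was not tested.

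Combination muscle held 116 genes that were higher and 552 that were lower than in the controls, which is 1.09% and 5.18% of the genes tested. In 666 of these 668 genes the 3 combination libraries lay apart from the 3 control libraries, a separation also seen in 6.37% of all genes in the higher and 23% in the lower direction. Of the 552 lower genes, 172 followed albumin under one of 2 rules and 380 did not. Outside both rules, 3.78% of the genes tested were lower. Most changes were modest: the median difference was 0.58 on the log2 scale for the higher genes and -0.62 for the 380 lower genes, and 14 higher and 30 of those lower genes differed by 1 or more on the log2(FPKM + 1) scale.

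The counts rested on the scaling and on single libraries, and both limits apply to every gene below. The median over all genes was -0.13, with 70.9% of them below 0, and after TMM scaling, which moved it to 0.02, 357 genes were higher and 380 lower, so that 48.4% of calls were higher in place of 17.4%. Without combination replicate 2, 1 gene was higher and 3 were lower, and without combination replicate 3 the counts were 14 and 9. Without control replicate 1 they were 12 and 18, without control replicate 2 they were 18 and 22, and without control replicate 3 they were 54 and 442. Leaving out combination replicate 1 gave 174 higher and 1469 lower genes. Sec14l5, Calm2 and Atp1b4, all lower, were called in all 12 fits that left out 1 library, and 15 further genes, among them Fkbp5, Jun, Il6ra, Tbc1d1, Ulk1, Jup and Trim54, in 11 of the 12. With a hepatocyte score as a covariate, limma called 0 genes higher and 1 lower, with 823 at an unadjusted p under 0.05, and 572 of the 668 differences had the same sign. That score separates the groups, so liver RNA and treatment cannot be told apart in that fit.

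**Figure D1:**
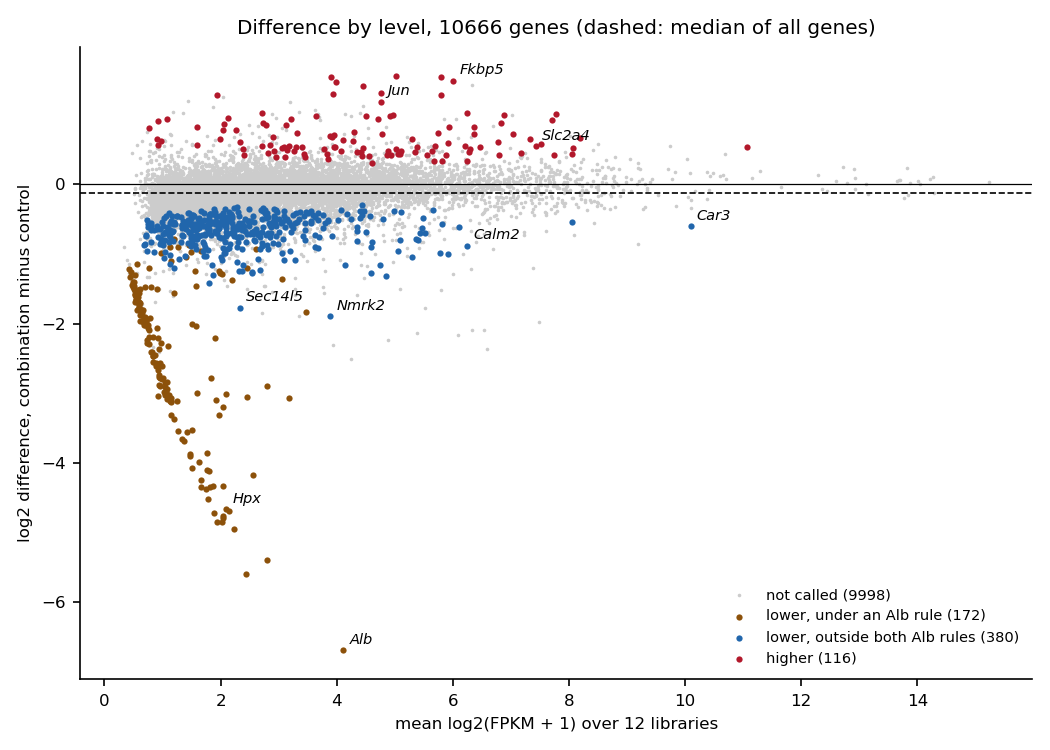
Difference of combination minus control on the log2(FPKM + 1) scale (vertical axis) against the mean log2(FPKM + 1) of all 12 libraries (horizontal axis), 1 point per gene tested. The 116 higher and 380 lower genes outside both albumin rules lie mostly within 1 log2 unit of 0, and the liver genes stretch down to albumin at -6.69.

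Fkbp5, Sgk1 and Cdkn1a are known targets of the glucocorticoid receptor. Of the 28 members of the glucocorticoid list, 7 were higher and 2 lower, beside 1.09% and 5.18% of all genes tested. Promoter windows from RefSeq (GRCm38.p6), from 250 bases before to 50 bases after the annotated start, are shown for genes that hold a searched motif, in capitals: Fkbp5 and Sgk1 of that list, Mid1ip1 of the genes with the largest rises, and Trim63, which belongs to the FoxO list and did not pass. The motifs were the E-box CACGTG, the FoxO site GTAAACA, the cAMP response element TGACGTCA and the palindromic glucocorticoid response element with at most 2 mismatches, on both strands. Positions count the annotated start as 0 along the gene's strand, and the build differs from GRCm39, which the submitters' processing notes list.
Fkbp5 (chr17:28486100-28486399, - strand): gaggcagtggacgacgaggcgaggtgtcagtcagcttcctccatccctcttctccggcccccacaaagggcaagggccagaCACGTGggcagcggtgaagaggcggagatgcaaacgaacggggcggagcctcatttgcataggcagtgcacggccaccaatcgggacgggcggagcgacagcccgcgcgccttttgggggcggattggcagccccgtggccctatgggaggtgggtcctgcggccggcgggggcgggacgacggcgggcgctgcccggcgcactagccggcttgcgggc
Sgk1 (chr10:21993640-21993939, + strand): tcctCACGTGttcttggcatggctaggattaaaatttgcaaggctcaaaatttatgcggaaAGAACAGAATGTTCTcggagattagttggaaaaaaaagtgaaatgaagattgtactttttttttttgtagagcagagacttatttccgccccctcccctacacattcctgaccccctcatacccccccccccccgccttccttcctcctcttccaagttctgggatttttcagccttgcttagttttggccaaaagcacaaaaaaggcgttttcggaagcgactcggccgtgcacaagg
Mid1ip1 (chrX:10717115-10717414, + strand): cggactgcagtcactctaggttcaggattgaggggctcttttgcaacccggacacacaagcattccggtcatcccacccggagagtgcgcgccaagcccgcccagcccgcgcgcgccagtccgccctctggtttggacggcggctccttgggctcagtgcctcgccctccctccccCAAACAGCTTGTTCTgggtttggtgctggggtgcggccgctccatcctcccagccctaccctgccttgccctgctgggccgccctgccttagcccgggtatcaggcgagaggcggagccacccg
Trim63 (chr4:134314870-134315169, + strand): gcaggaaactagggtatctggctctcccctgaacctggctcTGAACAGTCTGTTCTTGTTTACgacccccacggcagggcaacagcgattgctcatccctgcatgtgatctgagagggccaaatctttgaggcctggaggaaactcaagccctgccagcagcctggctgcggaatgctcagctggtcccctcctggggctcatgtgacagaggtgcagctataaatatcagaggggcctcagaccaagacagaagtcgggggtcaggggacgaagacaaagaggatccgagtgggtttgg
In Fkbp5 the capitals mark an E-box at -169. One of the 6 windows of Sgk1 is shown, with an E-box at -246 and a glucocorticoid response element without mismatch at -189, and another of its windows held an element with 2 mismatches at -183. Mid1ip1 held such an element with 2 mismatches at -74. In Trim63 an element with 1 mismatch began at -209 and ran into a FoxO site at -194. Windows were found for 89 of the 116 higher genes. The glucocorticoid element stood in 4 of these 89 (4.49%: Art3, Mid1ip1, Sgk1 and Vmp1), in 6 of 295 lower genes outside the albumin rules (2.03%) and in 107 of 8317 tested genes (1.29%), beside 2.1% of all 27025 genes in the table. The E-box stood in 11.2% of the higher genes and 12.2% of the tested genes, the FoxO site in 2.25% and 3.04%, and the cAMP response element in 2.25% and 3.62%. A match is a description of these letters.

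Fkbp5, which encodes a co-chaperone that restrains the glucocorticoid receptor, measured 26.0, 46.9 and 30.5 FPKM in the controls and 96.7, 97.6 and 92.5 FPKM in combination muscle. The groups did not overlap, and the difference was 1.49 ± 0.20 (SE, n = 3 against 3, limma adjusted p = 0.0105). Cdkn1a, which encodes the cell cycle inhibitor p21, stood at 25.2, 36.5 and 21.8 FPKM in the controls and within 78.8 to 82.3 FPKM in the combination libraries, a difference of 1.54 ± 0.25 (limma adjusted p = 0.0199). Sgk1, a kinase related to Akt, measured 73.3, 88.1 and 94.5 FPKM in the controls and 135, 157 and 105 FPKM in combination muscle. Its difference was 0.61 ± 0.14 (limma adjusted p = 0.033), and combination replicate 3 lay closest to the controls. Pnmt, the enzyme that makes adrenaline from noradrenaline, was low throughout, with 1.30 to 3.77 FPKM in the controls and 5.03 to 6.73 FPKM in combination muscle, and rose by 0.95 ± 0.24. Cebpb, a transcription factor, rose by 0.40 ± 0.11.

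The metallothionein Mt2, which binds zinc and other metals, gave 19.3, 36.4 and 31.0 FPKM in the controls and 104, 47.8 and 66.9 FPKM in combination muscle. It passed narrowly, at 1.28 ± 0.33 (limma adjusted p = 0.0497), with combination replicate 1 far above replicate 2, and short, similar metallothionein genes can share reads. Cebpd had a difference of 1.01 ± 0.31 that did not pass (limma adjusted p = 0.0784). Not every member of the list was higher: Dusp1, a phosphatase that switches off MAP kinases, was lower, and Tat, a liver enzyme of tyrosine breakdown, was lower in the order of albumin. The median of the 28 genes was 0.23, beside -0.13 for all genes, and 0.40 after TMM scaling.

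**Figure D2:**
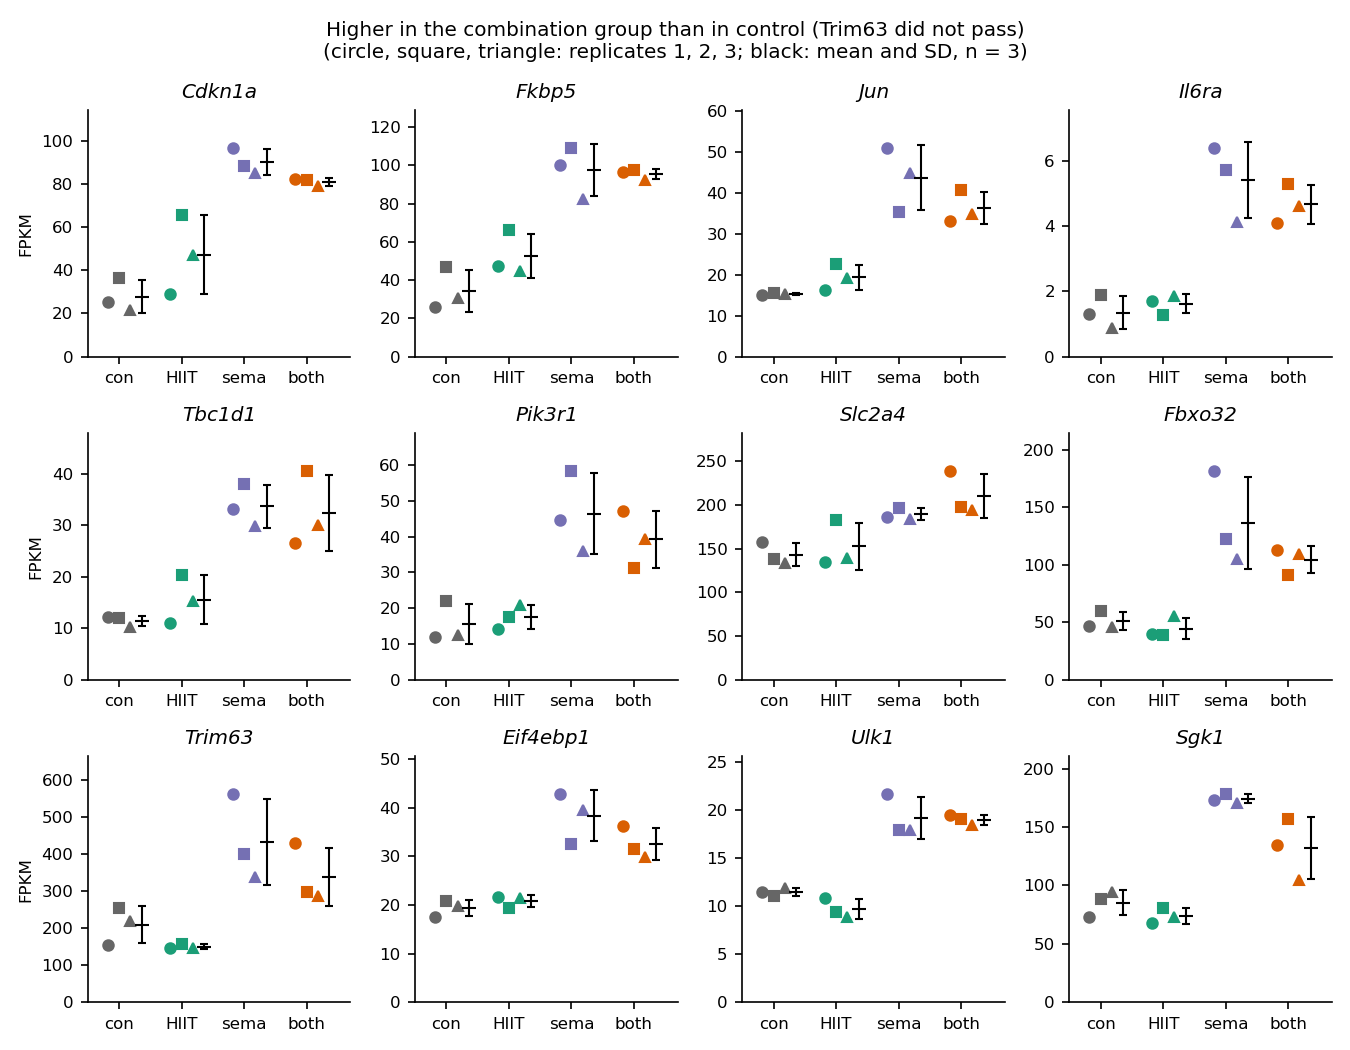
FPKM in each library of the 4 groups for genes that were higher in combination muscle than in the controls (FPKM axes from 0, 1 point per library, black marks at the mean with its SD, n = 3). Trim63 is shown although it did not pass. For Fkbp5 the 3 combination points lie at 92.5 to 97.6 FPKM, above the 3 controls at 26.0 to 46.9 FPKM.

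FoxO factors drive the genes of muscle wasting. Of the 26 members of that list, 6 were higher and none lower, beside 1.09% and 5.18% of all genes tested. Mt2 is among the 6 and is counted in the glucocorticoid list as well. The median of the list was 0.11, or 0.29 after TMM scaling. Fbxo32, whose product atrogin-1 marks proteins for degradation, measured 46.2, 59.9 and 46.1 FPKM in the controls and 113, 90.8 and 109 FPKM in combination muscle. Each combination library was above each control, with a difference of 1.03 ± 0.20 (limma adjusted p = 0.029). Trim63, whose ligase MuRF1 degrades contractile proteins, measured 155, 254 and 220 FPKM against 429, 297 and 287 FPKM. The groups did not overlap here either, but control 2 came close to combination replicate 3, and the difference of 0.69 ± 0.22 did not pass (limma adjusted p = 0.0868).

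Klhl38, a Kelch family gene linked to muscle wasting, was within 17.9 to 19.7 FPKM in the controls and 34.7 to 39.5 FPKM in combination muscle, a rise of 0.98 ± 0.22. Eif4ebp1, whose protein 4E-BP1 holds back cap-dependent translation, measured 17.5, 20.8 and 19.9 FPKM in the controls and 36.2, 31.5 and 29.9 FPKM in combination muscle, a rise of 0.72 ± 0.11 (limma adjusted p = 0.0175). Foxo3 itself rose by 0.55 ± 0.12 and Fbxo31, another ligase subunit, by 0.47 ± 0.09. The proteasome genes, the other arm of protein breakdown, did not pass in any of 32 cases, with a median of 0.07. Mstn, the growth inhibitor myostatin, overlapped between groups at 22.7 to 38.0 and 37.8 to 59.3 FPKM.

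Of 32 autophagy and lysosome genes, 3 were higher and none lower, beside 1.09% and 5.18% of all genes tested, with a median of 0.03. Ulk1, the kinase that opens the process, measured 11.5, 11 and 11.9 FPKM in the controls and 19.4, 19.0 and 18.4 FPKM in combination muscle. The spread within each group was small beside the difference of 0.68 ± 0.10 (limma adjusted p = 0.0106). Rb1cc1, its partner FIP200, rose by 0.43 ± 0.11. Sqstm1, the cargo receptor p62, measured 226, 231 and 229 FPKM against 318, 350 and 321 FPKM and rose by 0.52 ± 0.14. In the list of growth arrest and p53 targets, Phlda3, an Akt inhibitor, rose by 0.45 ± 0.11 beside Cdkn1a, and the other 17 of 19 genes did not pass.

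Leaving out single libraries ended many of these calls. Without combination replicate 2 the adjusted p of Fkbp5 was 0.0573 and that of Ulk1 0.0592. The calls of Cdkn1a, Fbxo32 and Foxo3 were also lost without control 1 and without combination replicate 3, with adjusted p-values of at most 0.0813, 0.103 and 0.107, and those of Fbxo32 and Foxo3 without control 2. Eif4ebp1 was lost without control 1 and without combination replicate 2 (at most 0.0757). Of the 12 fits that left out 1 library, Mt2 was called in 1, Cebpb in 2, Pnmt and Phlda3 in 3, Sqstm1 in 4, Rb1cc1 in 6, Sgk1 and Klhl38 in 7 and Fbxo31 in 8. Over these fits the difference was between 1.31 and 1.73 for Fkbp5 and between 0.97 and 1.15 for Fbxo32.

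In the insulin pathway 3 of 35 genes were higher and 1 lower, beside 1.09% and 5.18% of all genes tested, with a median of 0.05. Pik3r1 is among the 3 and is counted in the glucocorticoid list as well. Tbc1d1, which holds GLUT4 vesicles inside the fibre until Akt or AMPK phosphorylates it, measured 12.1, 11.9 and 10.3 FPKM in the controls and 26.5, 40.6 and 30.1 FPKM in combination muscle. The groups lay far apart, and the difference was 1.41 ± 0.20 (limma adjusted p = 0.0113). Pik3r1, the regulatory subunit of PI3-kinase, measured 12, 22.1 and 12.5 FPKM against 47.2, 31.2 and 39.3 FPKM, a difference of 1.32 ± 0.25 (limma adjusted p = 0.029). Slc2a4, the gene of GLUT4 itself, measured 158, 138 and 134 FPKM against 239, 198 and 194 FPKM and rose by 0.55 ± 0.13 (limma adjusted p = 0.0332). Grb10, an adaptor that restrains the insulin receptor, fell by 0.55 ± 0.12, from 8.26 to 10.3 FPKM in the controls to 5.25 to 6.61 FPKM.

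Among the other genes called higher, Mid1ip1, which activates acetyl-CoA carboxylase and so fatty acid synthesis, measured 9.58, 10.3 and 5.80 FPKM against 18.4, 20 and 28.3 FPKM and rose by 1.29 ± 0.27. Slc16a3, the lactate exporter MCT4, rose by 0.88 ± 0.19, from 70.9 to 87.2 FPKM in the controls to 143 to 154 FPKM. Plin3, a lipid droplet coat protein, rose by 0.71 ± 0.16, and was called in 7 of the 12 fits that left out 1 library. Of 28 glycolysis and glycogen genes, none passed, and neither did Irs1, Irs2 or Pdk4.

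Without combination replicate 2 the adjusted p of Tbc1d1 was 0.0573. The call of Pik3r1 was lost without control 1, combination replicate 2 or combination replicate 3 (at most 0.103), that of Slc2a4 in 6 of the 12 fits (at most 0.11), and that of Mid1ip1 in 5 (at most 0.107).

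The receptor of interleukin-6, Il6ra, was low in the controls, at 1.29, 1.89 and 0.873 FPKM, and reached 4.11, 5.30 and 4.61 FPKM in combination muscle. The difference was 1.29 ± 0.18 (limma adjusted p = 0.0105). Interleukin-6 signals in muscle through this receptor and the shared chain Il6st, which stood at 14.4 to 18.3 and 15 to 16.6 FPKM. Il6ra was the only call among the 18 genes of its list, and Socs3, a target of that signal, measured 0.693 to 0.947 and 0.586 to 1.09 FPKM. Jun, a subunit of the transcription factor AP-1, measured 15, 15.5 and 15.4 FPKM in the controls and 33.2, 40.6 and 34.9 FPKM in combination muscle. The controls hardly differed among themselves, and the difference was 1.19 ± 0.14 (limma adjusted p = 0.00813). Without combination replicate 2 the adjusted p was 0.0592 for Il6ra and 0.0544 for Jun.

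Dusp1, another immediate early gene, went the other way, with 46.1, 42.1 and 50.1 FPKM in the controls and 25.6, 11.6 and 19.2 FPKM in combination muscle, and fell by 1.31 ± 0.31 (limma adjusted p = 0.0365). It was not called after TMM scaling (limma adjusted p = 0.0555) and was lost in 6 of the 12 fits that left out 1 library. The windows of Il6ra and Dusp1 are shown because they lead the cytokine and MAP kinase genes and hold searched motifs.
Il6ra (chr3:89913147-89913446, - strand): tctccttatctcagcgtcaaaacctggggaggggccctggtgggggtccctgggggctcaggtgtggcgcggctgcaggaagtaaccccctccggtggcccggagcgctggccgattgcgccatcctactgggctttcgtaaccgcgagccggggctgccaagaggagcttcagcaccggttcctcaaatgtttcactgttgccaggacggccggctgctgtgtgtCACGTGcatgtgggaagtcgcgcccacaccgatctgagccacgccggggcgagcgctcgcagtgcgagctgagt
Dusp1 (chr17:26508423-26508722, - strand): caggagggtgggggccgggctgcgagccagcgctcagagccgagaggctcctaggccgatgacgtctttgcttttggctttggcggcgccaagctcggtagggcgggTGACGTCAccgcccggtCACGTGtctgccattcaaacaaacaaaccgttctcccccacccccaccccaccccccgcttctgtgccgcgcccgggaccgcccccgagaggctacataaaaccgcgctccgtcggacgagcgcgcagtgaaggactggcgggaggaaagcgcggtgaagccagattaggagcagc
The capitals mark an E-box at -24 in Il6ra, and in Dusp1 a cAMP response element at -143 followed by an E-box at -126. The remaining genes with large rises had varied roles. Cep85l, a centrosomal protein, measured 7.63, 8.12 and 6.73 FPKM against 32.6, 14.9 and 23.6 FPKM, a difference of 1.48 ± 0.24 with a wide spread in the combination group, called in 9 of the 12 fits that left out 1 library. Tmem37, a calcium channel subunit, rose by 1.56 ± 0.38 (limma adjusted p = 0.0428) and was called in 3 of the 12 fits that left out 1 library.

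Trim54, a relative of Trim63 that binds microtubules and titin at the sarcomere, measured 149, 161 and 156 FPKM in the controls and 303, 340 and 300 FPKM in combination muscle, a rise of 1.01 ± 0.14 (limma adjusted p = 0.0105). Jup, the junction protein plakoglobin, measured 24.5, 21.9 and 19.6 FPKM against 41.7, 48.0 and 44.6 FPKM, a rise of 1.00 ± 0.13 (limma adjusted p = 0.0105). Both lost the call only without combination replicate 2, of the 12 fits that left out 1 library, and both were picked after this was seen. Hspb1, a small heat shock protein of the sarcomere, rose by 1.00 ± 0.26, with combination replicate 2 highest at 220 FPKM and 73.6 to 88.5 FPKM in the controls. It was called in 3 of the 12 fits that left out 1 library, and the other 30 genes of the chaperone list did not pass.

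Sec14l5, Calm2 and Atp1b4 were the lower genes called in all 12 fits that left out 1 library. Calm2 and Atp1b4 were picked for that, so it is no separate support for them. Calm2, 1 of 3 genes for the same calmodulin protein, measured 103, 104 and 96.1 FPKM in the controls and 60.9, 51.1 and 51.6 FPKM in combination muscle. The difference was -0.88 ± 0.08 (limma adjusted p = 0.00238). Atp1b4, which resembles a sodium pump beta subunit but in placental mammals sits in the nuclear envelope of muscle, measured 5.00, 4.36 and 5.18 FPKM against 2.00, 1.88 and 1.43 FPKM. It fell by 1.08 ± 0.11 (limma adjusted p = 0.00238), with no overlap. Sec14l5, a lipid-binding protein of the Sec14 family, measured 8.59, 6.44 and 8.64 FPKM against 2.23, 1.04 and 1.65 FPKM and fell by 1.77 ± 0.18 (limma adjusted p = 0.00274). Over the 12 fits that left out 1 library its difference was between -1.93 and -1.59.

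Nmrk2, a muscle kinase that makes NAD from nicotinamide riboside, was the only call among 17 genes of NAD metabolism. It measured 30.1, 14.4 and 30.8 FPKM in the controls and 6.05, 5.35 and 5.67 FPKM in combination muscle, a difference of -1.89 ± 0.30 (limma adjusted p = 0.0186). Nampt, which serves the main salvage route to NAD, measured 27.0 to 29.2 and 25.2 to 28.8 FPKM. Slc6a6, the taurine transporter, measured 30.9, 30.5 and 29.1 FPKM against 20.3, 16.9 and 18.2 FPKM and fell by 0.68 ± 0.09 (limma adjusted p = 0.0105), or 0.0573 without combination replicate 2. Slc6a9, the glycine transporter, fell by 0.68 ± 0.14 at a low level of 1.93 to 2.98 FPKM in the controls. Tfrc, the transferrin receptor for iron uptake, fell by 1.27 ± 0.29, from 26.2 to 40.6 FPKM to 9.78 to 17.1 FPKM.

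Mrtfa, a coactivator of the serum response factor that is released when actin polymerises, measured 6.96, 5.00 and 6.96 FPKM in the controls and 1.85, 2.35 and 2.02 FPKM in combination muscle, a difference of -1.24 ± 0.20 (limma adjusted p = 0.0175). Actg1, a cytoplasmic actin with close relatives that can share its reads, measured 76.6, 78.7 and 62.3 FPKM against 46.8, 28.4 and 34.3 FPKM and fell by 0.99 ± 0.17. The other 28 of 30 genes of this list did not pass, and the median of the list was -0.04. Avil, the actin-severing protein advillin, fell by 1.42 ± 0.27. Igfbp5, which binds insulin-like growth factors, measured 32.3, 45.8 and 41.6 FPKM against 13.8, 16.9 and 21.3 FPKM and fell by 1.16 ± 0.26. Nmrk2, Mrtfa and Avil lost their calls without control 1, combination replicate 2 or combination replicate 3 (adjusted p of at most 0.0813, 0.0722 and 0.107), and Actg1 without control 2 as well (at most 0.0823). Tfrc and Igfbp5 were called in 7 of the 12 fits that left out 1 library.

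**Figure D3:**
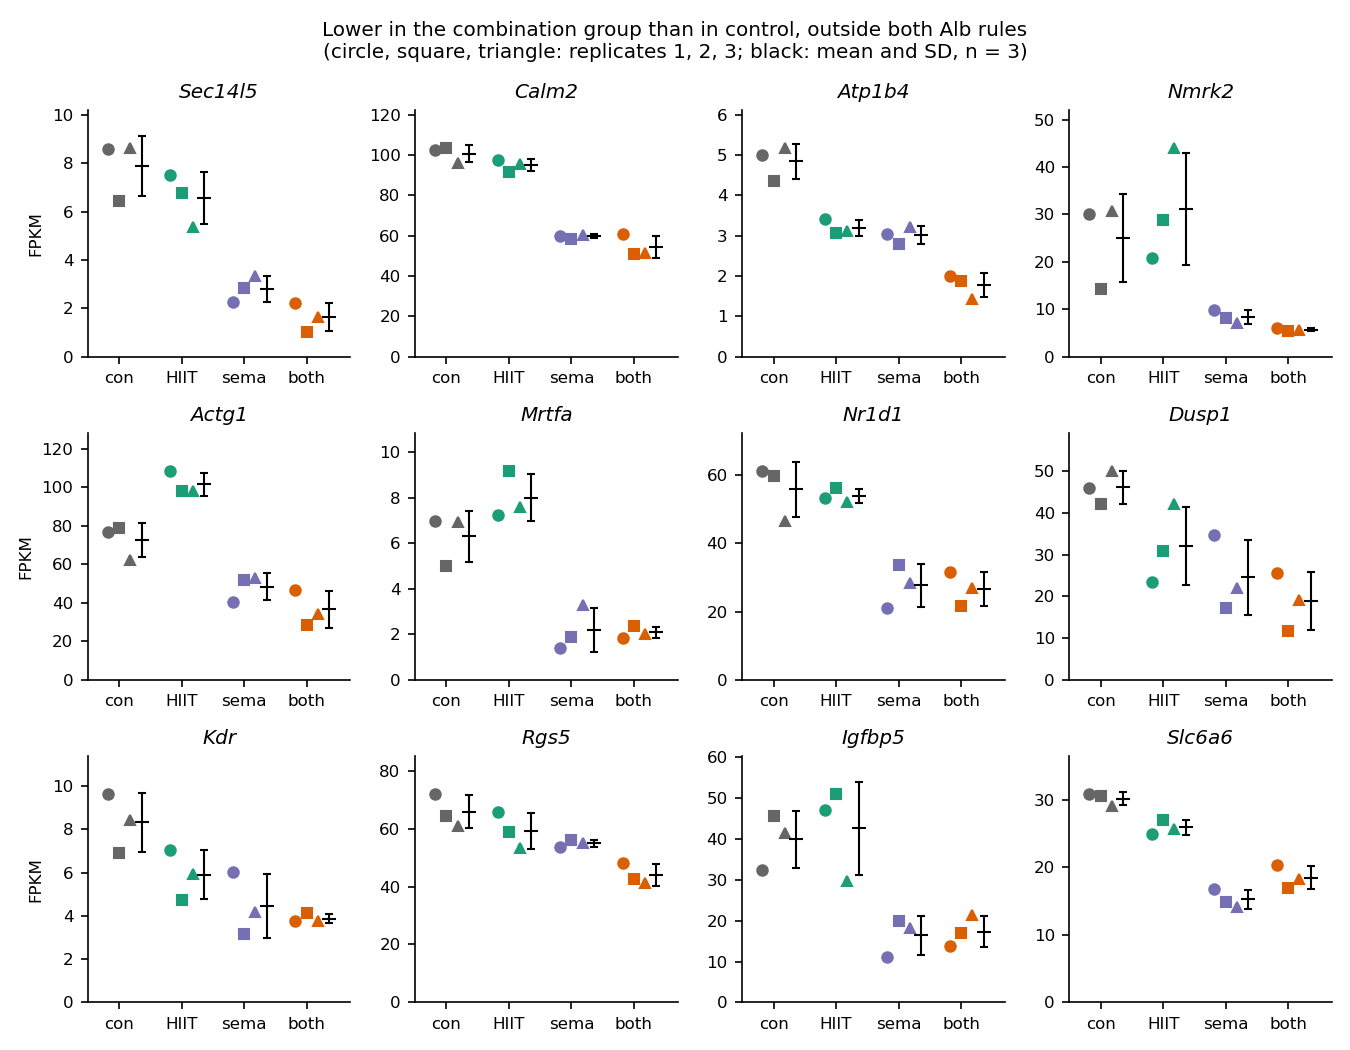
FPKM in each library of the 4 groups for genes that were lower in combination muscle than in the controls (FPKM axes from 0, 1 point per library, black marks at the mean with its SD, n = 3). For Calm2 the 3 combination points lie at 51.1 to 60.9 FPKM, below the 3 controls at 96.1 to 104 FPKM.

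Of 21 clock genes, 2 were lower, beside 5.18% of all genes tested. Nr1d1, the repressor REV-ERB alpha, measured 61.4, 59.7 and 46.7 FPKM in the controls and 31.7, 21.6 and 26.8 FPKM in combination muscle, a fall of 1.05 ± 0.17 (limma adjusted p = 0.0199). It was called in 8 of the 12 fits that left out 1 library, with an adjusted p of at most 0.0813. Dbp, an output gene of the clock, measured 20.5, 20.2 and 25.5 FPKM against 10.7, 7.89 and 11.6 FPKM, and its difference of -1.07 ± 0.28 missed the threshold (limma adjusted p = 0.0513). Clock fell by 0.32 ± 0.09 but was called in 1 of the 12 fits that left out 1 library and not after TMM scaling (limma adjusted p = 0.241). Per1 overlapped between the groups, at 23.7 to 29.6 and 12.3 to 37.5 FPKM. The time of day of sampling is not given in the labels.

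Some markers of small vessels were lower. They were 2 of 14 (14.3%) for endothelium and 3 of 10 (30%) for pericytes and smooth muscle, beside 5.18% of all genes tested. Kdr, the main VEGF receptor of endothelium, measured 9.64, 6.92 and 8.41 FPKM in the controls and 3.75, 4.11 and 3.75 FPKM in combination muscle, a fall of 0.93 ± 0.19 (limma adjusted p = 0.029). Cdh5, the endothelial cadherin, fell by 0.55 ± 0.13, but was called in 4 of the 12 fits that left out 1 library and not after TMM scaling. All 14 endothelial markers had a difference below 0, beside 70.9% of all genes, and 11 lay lower in all 3 combination libraries, beside 23% of all genes. Yet their summed level was 348 to 824 FPKM in the controls and 226 to 598 FPKM in combination muscle, so that the sums overlapped, with combination replicate 1 highest of its group. That replicate was also highest of its group for the white adipocyte markers, at 1026 FPKM. Fabp4 belongs to both lists, and its part in the endothelial sums was not tested. In bulk RNA, fewer cells of a type and less RNA per cell cannot be told apart.

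Of the 10 pericyte and smooth muscle markers tested, Rgs5, Kcnj8 and Notch3 were lower. Rgs5, a regulator of G-protein signalling in pericytes, measured 72.0, 64.5 and 60.9 FPKM in the controls and 48.1, 42.6 and 41.2 FPKM in combination muscle, a fall of 0.57 ± 0.10. The pericyte sums did not overlap, at 159 to 172 FPKM and 115 to 136 FPKM. Among 22 angiogenesis genes Angpt1, which steadies vessels, fell by 0.73 ± 0.19, while Vegfd, a growth factor of lymphatic and blood vessels, rose by 0.78 ± 0.18. The call of Kdr was lost without controls 1 or 2 and without combination replicates 2 or 3 (adjusted p of at most 0.105), that of Rgs5 in 4 of the 12 fits that left out 1 library, and that of Vegfd in 5. Kcnj8 and Angpt1 were called in 2 of those 12 fits and not after TMM scaling, and Notch3 in 4.

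Of 37 matrix genes, Col6a3, Col15a1 and Nid2 were lower and none higher, a share of 8.11% that is near the 5.18% of all genes. Col6a3, a chain of collagen VI around fibres, measured 4.61, 4.23 and 3.05 FPKM in the controls and 2.28, 1.74 and 1.69 FPKM in combination muscle, a fall of 0.77 ± 0.17. It was lost without controls 1 or 2 and without combination replicates 2 or 3 (adjusted p of at most 0.112). Col15a1 overlapped between the groups. The list's median of -0.38 became 0.07 without controls 1 and 2, so its direction rested on those libraries. All 15 fibroblast markers were below 0 with none called.

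Sterol synthesis had 6 lower genes of 25 and none higher, beside 5.18% and 1.09% of all genes tested. Mvd, an enzyme of the mevalonate pathway, measured 11.1, 7.56 and 7.20 FPKM in the controls and 4.64, 1.92 and 2.76 FPKM in combination muscle, a fall of 1.26 ± 0.23 (limma adjusted p = 0.0279). Fdps, which makes farnesyl diphosphate, fell by 0.53 ± 0.11, and Srebf2, the transcription factor of the pathway, fell by 0.48 ± 0.12. Neither was called after TMM scaling (limma adjusted p = 0.0542 and 0.058). Liver is rich in these enzymes, and 9 of the 25 genes, including the lower Msmo1, stood in the order of albumin across the controls. The call of Mvd was lost without controls 1 or 2 and without combination replicates 2 or 3 (adjusted p of at most 0.103).

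None of 34 genes of fatty acid uptake and oxidation was called, though 29 had a difference below 0, with a median of -0.29 that became -0.10 after TMM scaling. Cpt1b, which admits fatty acids to mitochondria, measured 143, 93.1 and 116 FPKM in the controls and 94.2, 83.5 and 102 FPKM in combination muscle, and the groups overlapped. None of 23 TCA cycle, 36 complex I, 36 complex III to V or 22 branched-chain amino acid genes was called, with medians of 0.09, -0.01, 0.02 and 0.10. Ppargc1a, the coactivator of mitochondrial growth, measured 5.28, 3.91 and 4.18 FPKM against 6.57, 5.37 and 6.35 FPKM, a difference of 0.38 ± 0.15 that did not pass (limma adjusted p = 0.136).

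The slow-fibre genes varied widely between libraries. In the 16 tested the median difference was -1.22, with 15 below 0 and 1 called. Of the 16, 6 stood in the order of albumin across the controls, beside 5.61% of all genes tested. Against the same controls the median of the 16 was -0.94 for semaglutide alone and -1.06 for HIIT alone. The called gene was Myh7b, a slow myosin, which fell by 0.96 ± 0.24 from 1.36 to 2.06 FPKM in the controls. It was called in 4 of the 12 fits that left out 1 library. Myh7 itself measured 93.2, 108 and 48.2 FPKM in the controls and 12.3, 5.27 and 57.2 FPKM in combination muscle, so the groups overlapped and the difference of -2.23 ± 0.86 did not pass (limma adjusted p = 0.141). None of 18 fast-fibre genes passed, with a median of 0.01. The 53 cytosolic ribosomal proteins, which have many near copies in the genome, had a median of -0.25 with 50 below 0 and none called, and -0.07 after TMM scaling. All 13 interferon genes were below 0 with none called, beside 70.9% of all genes below 0.

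**Figure D4:**
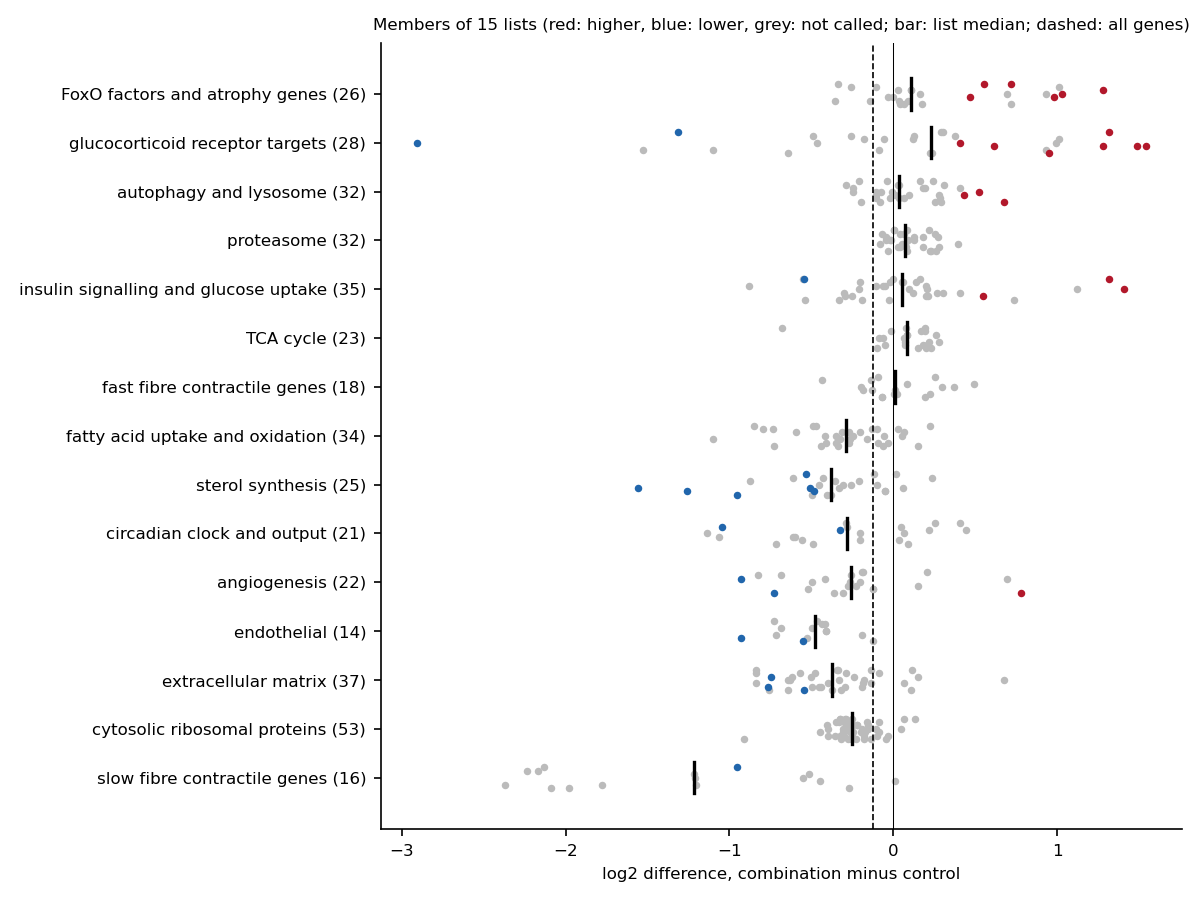
Difference of combination minus control on the log2(FPKM + 1) scale (horizontal axis) for each tested member of 15 gene lists (1 row per list, 1 point per gene, red higher, blue lower, grey not called, black bars at the list medians, dashed line at the median of all genes, -0.13). Of the lists drawn, the glucocorticoid list has the highest median at 0.23 and the slow-fibre list the lowest at -1.22.

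The largest falls of all were in genes made by hepatocytes. Alb, serum albumin, measured 399, 714 and 108 FPKM in the controls and 2.60, 3.46 and 0.773 FPKM in combination muscle, a difference of -6.69 ± 1.12 (limma adjusted p = 0.0232). Apoa2, an apolipoprotein, measured 83.1, 194 and 21.3 FPKM against 0.561, 1.22 and 0.410 FPKM. The controls themselves spread widely and in 1 order. By the first rule 145 genes followed albumin, within 1 log2 unit of its differences of 1.88 (control 1 minus control 3) and 2.72 (control 2 minus control 3), and 112 of them were lower and none higher. Just inside that limit were Reep6 at 0.9999 (difference -2.04) and Asgr2 at 0.997 (-1.34, not called), and just outside Angptl7 at 1.006 (0.39, not called) and Nipsnap1 at 1.01 (-1.50, lower).

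The second rule, added after the values were seen, took genes with control 2 above 1 above 3 and control 2 at least 2 times control 3. It held 598 genes, or 5.61% of those tested, 172 of the 552 lower genes (31.2%) and 4 higher ones, Il6ra among them. The 5 lower PPAR targets, Cyp4a10 and Cyp4a14 among them, all stood in the order of albumin. Cyp4a14, an enzyme of fatty acid hydroxylation, measured 25.1, 43.2 and 4.61 FPKM in the controls and at most 0.159 FPKM in combination muscle. Hpx, the haem carrier hemopexin, and the acute phase genes Saa1 and Saa2, which share sequence, had differences of -4.66, -4.32 and -3.85. With controls 1 and 2 left out, limma called 0 genes higher and 0 lower, with 1072 at an unadjusted p under 0.05. In that fit control 3 is assumed to vary like the libraries of the other groups.

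Against semaglutide alone, combination muscle differed in 1 gene tested (0.00938%), an unnamed assembled transcript that was lower by 1.20 ± 0.14 (limma adjusted p = 0.0267). It measured 3.45, 3.76 and 3.94 FPKM with semaglutide and 1.37, 1.04 and 0.777 FPKM in the combination. Without combination replicate 1 the count was 557, and 1292 genes had an unadjusted p under 0.05 with it, 190 higher and 1102 lower. The genes with the smallest p were Dusp29, a phosphatase of muscle, which measured 2.74, 2.80 and 3.38 FPKM with semaglutide and 5.93, 5.89 and 9.10 FPKM in the combination (0.98 ± 0.16, limma adjusted p = 0.28), and Ppfibp2, a liprin, at 6.80, 6.60 and 6.68 FPKM against 3.88, 2.51 and 2.47 FPKM (-0.98 ± 0.17, limma adjusted p = 0.28). Neither passed.

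For the leading genes the values with semaglutide alone are set beside those of the combination. Fkbp5 measured 100, 109 and 82.4 FPKM, Cdkn1a 96.7, 88.5 and 85.2 FPKM, and Jun 50.9, 35.3 and 44.8 FPKM. The combination minus semaglutide difference was -0.02 ± 0.20 for Fkbp5, -0.15 ± 0.25 for Cdkn1a and -0.25 ± 0.14 for Jun, and none passed. Semaglutide alone against the same 3 controls gave 121 higher and 276 lower genes, and these comparisons share libraries. Dbp measured 2.24, 6.35 and 4.73 FPKM with semaglutide, and its difference of 1.09 ± 0.28 did not pass (limma adjusted p = 0.28).

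Against HIIT alone, 112 genes were higher (1.05%) and 209 lower (1.96%) in combination muscle, and in the fits that left out 1 library the total of 321 was between 18 and 1574, without combination replicates 2 and 1. Libraries with the same number in these groups deviated together, at correlations of 0.224 to 0.294. Some libraries with different numbers in other groups did so as well, such as control 2 and HIIT 1 at 0.451. A replicate block of HIIT and combination, added after the data were seen, gave 1370 genes in all 12 libraries, 305 higher and 1065 lower. It gave 791 genes in the 2 groups alone. Of the 26 atrophy genes, 6 were higher. Fbxo32 measured 39.4, 38.7 and 55.3 FPKM with HIIT, a difference of 1.23 ± 0.20 (limma adjusted p = 0.0183). Trim63 measured 147, 157 and 147 FPKM, and here its difference of 1.14 ± 0.22 passed (limma adjusted p = 0.0284). Ulk1 stood at 10.9, 9.41 and 8.89 FPKM (0.90 ± 0.10, limma adjusted p = 0.00398).

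Arrdc3, an arrestin-like protein, had the largest rise, 1.66 ± 0.33, from 7.03 to 11.3 FPKM with HIIT to 17.8 to 51.6 FPKM in the combination. Cebpd rose by 1.48 ± 0.31, Pnmt by 1.46 ± 0.24 and Prima1, which anchors acetylcholinesterase, by 1.17 ± 0.26. Of 37 matrix genes 8 were lower, beside 1.96% of all genes tested. Of the 15 fibroblast markers 4 were lower too, with summed levels of 642 to 1429 FPKM with HIIT and 476 to 711 FPKM in the combination. The part of the fibroblast markers in the matrix result was not tested. Col3a1, a fibrillar collagen, measured 73.6, 30.8 and 65.4 FPKM with HIIT and 17.1, 6.88 and 10.8 FPKM in the combination, a fall of 2.18 ± 0.44 (limma adjusted p = 0.0343), whereas against the controls, at 23.5, 28.6 and 10.3 FPKM, it overlapped.

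Against HIIT the differences were -2.20 ± 0.30 for Nmrk2, -1.55 ± 0.20 for Mrtfa, -1.53 ± 0.18 for Sec14l5 and -1.51 ± 0.27 for Avil. Actg1 measured 109, 98.3 and 98.0 FPKM with HIIT, above every control and every combination library. HIIT alone against the same controls gave 0 called genes in limma, with 952 at an unadjusted p under 0.05.

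**Figure D5:**
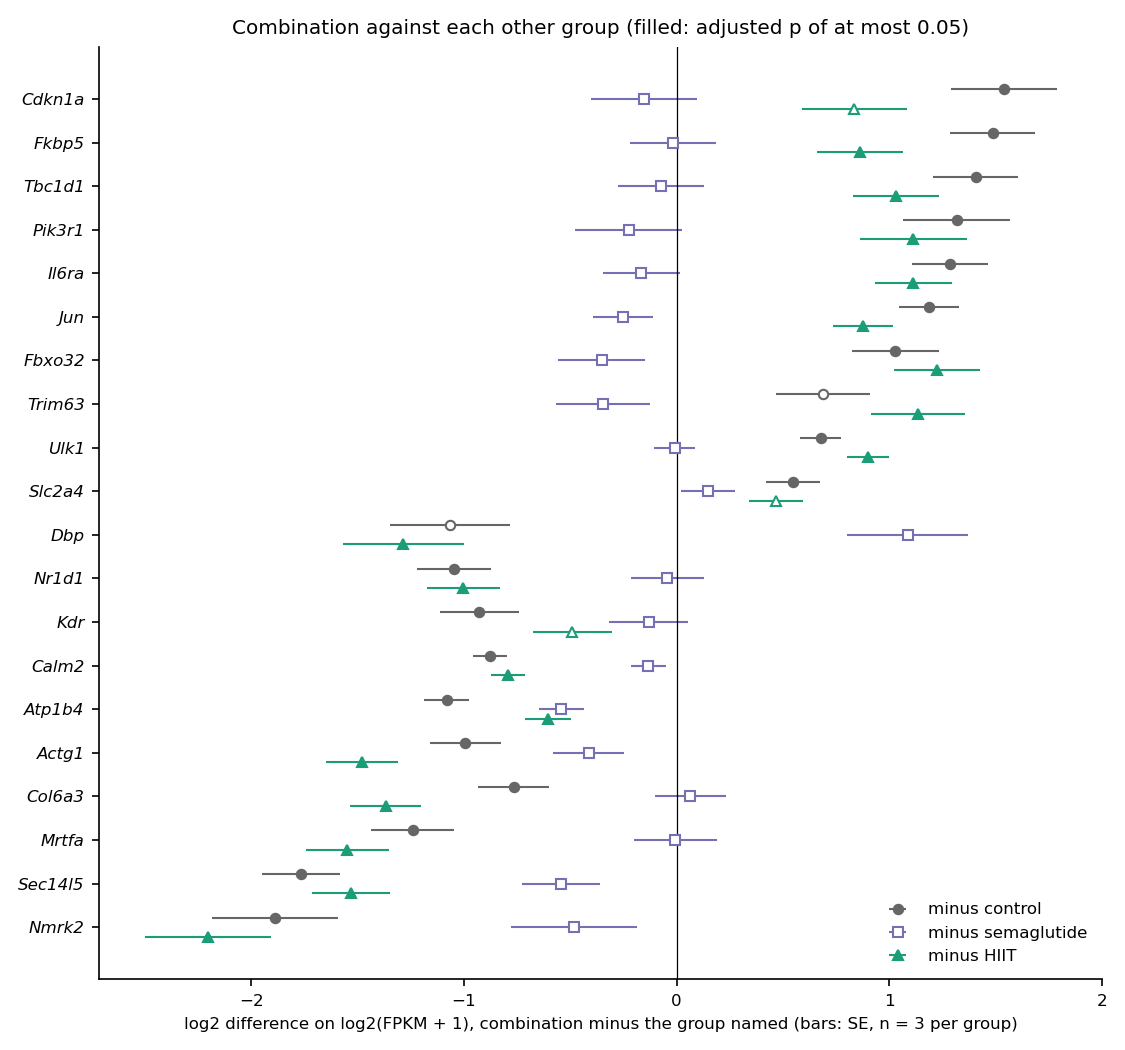
Differences on the log2(FPKM + 1) scale, with standard errors, of combination minus control, combination minus semaglutide and combination minus HIIT for the leading genes (1 row per gene, filled where the adjusted p was at most 0.05). Fkbp5 lies at 1.49 against the controls, at -0.02 against semaglutide and at 0.86 against HIIT.

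Receptors of the drug and of related hormones were hardly measured in these libraries, and Glp1r, Gipr and Lepr did not reach the filter. Glp1r, the receptor of GLP-1 and of semaglutide, was listed at 0 in all libraries but control 1, and Lepr, the leptin receptor, reached at most 0.182 FPKM. Gcgr, the glucagon receptor of liver, measured 1.66, 2.45 and 0.218 FPKM in the controls and at most 0.0471 FPKM in combination muscle, and its difference of -1.14 ± 0.36 did not pass (limma adjusted p = 0.0806).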

How the data were processed

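RNA of muscle from db/db mice was sequenced as paired reads of 150 bases from polyadenylated transcripts, per the labels' protocols, which call the libraries stranded; the sources used here do not name the strand setting of the counting. The authors deposited 1 table of FPKM values per gene and library for all 4 groups. Per the submitters' processing notes, CASAVA, FastQC, Trimmomatic 0.36, STAR 2.7.9a, featureCounts 2.0.1 and StringTie 2.1.4 were used with the build GRCm39; which of them made the FPKM values is not stated. FPKM values are relative within a library, so a few abundant genes can shift all others. Low values were not whole multiples of 1 fragment for most genes (32 to 45.1% within 10% of 1 or 2 steps), so no counts were recovered and no count model was used.

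The tests ran on the 10666 genes that reached an FPKM of 1 in 3 or more libraries. Values were taken as log2(FPKM + 1), with a pseudocount of 1, and group means were compared in limma 3.58.1 (R 4.3.3; trend and robust options, all 12 libraries in 1 fit, Benjamini-Hochberg over all genes). The procedure was tested on simulated data. TMM factors (trimmed means of log ratios) were computed from the FPKM values. Differences of log2(FPKM + 1) understate the change of low genes.

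The groups came from the sample labels. A few genes that the rule below would name are not reported here. The members, the lists of genes and the tests were chosen with earlier results of these data known. Named genes were the 12 higher and 12 lower genes with the largest difference whose libraries lie apart and that do not follow albumin, 5 lower genes that do, up to 4 called members of each list, a fixed panel, and 5 genes a direction of the comparisons with HIIT and semaglutide, or the 3 with the smallest p. Added after seeing the data were the second albumin rule and the 20 lower genes with the largest difference outside both rules. So were the fit that left out combination replicates 2 and 3 together and the replicate blocks of HIIT and combination. Kcnj8, Notch3, Cdh5, Rgs5, Jup, Trim54, Calm2, Atp1b4 and other genes outside that rule were chosen after their values were seen, for holding in the fits that left out 1 library or as called members of a marker list.

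Replicate numbers are shared by the groups in the labels, with no animal, litter or day named. Deviations from the group means correlated at 0.294, 0.27 and 0.224 for the same-numbered pairs of HIIT and combination, so a replicate block is given beside that comparison. Pairs of these 2 groups with different numbers lay between -0.241 and 0.049. In other groups some different-numbered pairs were stronger, such as control 2 with HIIT 1 (0.451) and control 2 with combination 1 (0.319). These correlations therefore do not establish a pairing. For the same-numbered pairs of control and combination the correlations were -0.224, -0.176 and 0.028, and for those of semaglutide and combination 0.013, 0.092 and -0.0058, so the numbers were not used to pair them. Promoter windows are from RefSeq (GRCm38.p6), matched by symbol for 8317 of the 10666 genes tested.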

Additional observations from a re-analysis of the deposited data

How the results depend on the processing

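In 666 of the 668 genes called against control the libraries of the groups lay apart, so a kept sign without 1 library says nothing of stability. In the fits that left out 1 library the count of higher genes was between 1 and 174, of lower genes between 3 and 1469, of lower genes not following albumin between 3 and 1361, and of lower genes outside both rules between 3 and 1292. The counts against semaglutide were between 0 and 557 and against HIIT between 18 and 1574. With no filter 77 genes were higher, and 195 differed from HIIT; with an FPKM of at least 5 in 3 libraries 164 were lower (128 not following albumin, 121 outside both rules). TMM scaling gave 357 higher genes, 264 and 194 lower genes outside 1 and both rules, and 693 against HIIT; quantile normalization gave 227 higher and 201 lower genes (113 and 85). TPM gave 213 against HIIT. With only the 2 groups compared in the fit, 36 were higher and 86 lower (63 and 60), and 9 differed from HIIT. The hepatocyte covariate left 0 higher and 1 lower (1 and 1) and 33 against HIIT. With the white adipocyte covariate 141 were higher and 779 lower (658 and 566), and 40 differed from HIIT. With controls 1 and 2 left out, limma called 0 higher and 0 lower genes (1072 at an unadjusted p under 0.05) and 165 against HIIT; with combination 2 and 3 left out, chosen after seeing the data, 0 higher, 0 lower (1112 at an unadjusted p under 0.05) and 0 against HIIT. The single call against semaglutide became 0 with a pseudocount of 0.1, with no filter, with an FPKM of at least 5, with quantile normalization, with only the 2 groups, with the replicate block and with the white adipocyte covariate. The replicate block over 12 libraries gave 103 higher and 642 lower genes against control, 335 against HIIT and 0 against semaglutide. The blocks of HIIT and combination, added after the data were seen, gave 1370 and 791. The block over 12 libraries changed which genes passed, since 97 of the 116 higher and 492 of the 552 lower genes passed with it too. The libraries it joins share only a number. Under the hepatocyte covariate 572 of the 668 differences kept their sign. Among the named genes, 9 liver genes turned in that fit. Their differences became 0.10 for Tmt1b, 0.031 for Apof, 0.16 for Cyp2f2, 0.12 for Cyp2d9, 0.00037 for Gjb1, 0.28 for Hgd, 0.10 for Apoc3, 0.077 for Tat and 0.23 for Cth. Of the other values of named genes under the alternatives, 2561 stayed on the same side of the threshold, 917 lost the call and 21 gained it. A change of sign was counted only where the main fit or the alternative called the gene. The cause of these shifts was not tested, apart from the fewer genes or samples that an alternative itself leaves. The files give no depth, so the limit for low genes cannot be set.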
